A study of Mus musculus with 9 samples.

Results

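The 8 genes described here serve cholesterol synthesis and its control and were followed across mouse spleen monocytes: Srebf2, Insig1, Hmgcs1, Idi1, Fdft1, Sqle, Lss and Cyp51. These 8 were taken by gene symbol from the 55487 gene IDs of the deposited tables, and each matched 1 ID. The set was chosen with earlier results of these data known. The data were 9 bulk RNA-seq libraries of monocytes sorted from the spleens of untreated C57BL/6 mice, with 3 libraries in each of 3 groups. Ly6Chi monocytes of wild-type mice (Ly6Chi WT; WT is wild type) are the classical, inflammatory monocytes, and Ly6Clo monocytes of wild-type mice (Ly6Clo WT) are the patrolling ones. The group called Ly6Clo KO held Ly6Clo monocytes of Cebpa +37-/- mice, which lack both copies of an enhancer of Cebpa, the gene of the myeloid transcription factor C/EBPα. Ly6Chi monocytes of the mutant are not analysed here. The labels give neither the age of the mice nor whether the libraries of a group came from separate animals or pools, so every p-value below reflects variation among these libraries alone, and that variation may be technical.

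Cholesterol is built from acetyl-CoA through mevalonate, the isoprenoids and squalene, and squalene is then closed into lanosterol and trimmed to cholesterol. SREBP2, the protein of Srebf2, is held in the endoplasmic reticulum by SCAP and the INSIG proteins while sterols are plentiful. When sterols run low it moves to the Golgi, is cut by a pair of proteases and, as a freed transcription factor, switches on nearly every gene of the route, its own gene and Insig1 included. Monocytes and macrophages use the same circuit to balance lipid taken up from their surroundings against their own synthesis.

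Sequences before the starts of the genes are shown to describe them; no value here tests what binds there. RefSeq windows from 250 bases before to 50 bases after each start (GRCm38.p6) were found for 6 of the 8; Sqle and Fdft1 had no entry. Sterol elements are bound by SREBP together with NF-Y, which reads CCAAT, written ATTGG where it lies on the other strand, and with Sp1, whose box is GGGCGG. Stretches that lie outside counted exons and hold a CCAAT box are printed 5′ to 3′ on the gene's strand, with the ATTGG letters in capitals, and in Hmgcs1 also the sterol element.
Srebf2, chr15:82147107-82147166, plus strand: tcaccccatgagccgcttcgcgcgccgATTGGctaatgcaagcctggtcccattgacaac
Hmgcs1, chr13:119690101-119690350, plus strand: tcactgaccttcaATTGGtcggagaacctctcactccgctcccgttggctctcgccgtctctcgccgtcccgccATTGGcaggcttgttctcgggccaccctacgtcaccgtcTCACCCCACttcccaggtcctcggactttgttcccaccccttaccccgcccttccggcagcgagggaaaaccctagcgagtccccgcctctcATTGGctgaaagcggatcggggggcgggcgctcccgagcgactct
Lss, chr10:76531516-76531575, plus strand: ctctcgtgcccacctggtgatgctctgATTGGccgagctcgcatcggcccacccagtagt
Insig1, chr5:28071169-28071228, plus strand: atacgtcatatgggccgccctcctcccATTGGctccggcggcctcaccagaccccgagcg

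Both strands of the windows were searched. CCAAT was present in 6 of the 6 windows, against 37.4% of all 32851 RefSeq promoter windows, and GGGCGG was also in 6 of 6, against 35.7%. The sterol element core TCACNCCAC was in 1 of 6, that of Hmgcs1, 137 bases before the start, and in 1.24% of all windows. Its most studied form, TCACCCCAC, is one form of that core and was found in the same place, against 0.551% of all windows. The E box CACGTG was in the Insig1 window alone among the 6, 101 bases before the start, and in 7.15% of all windows. A match of letters describes the window and is not evidence of binding.

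The tables held 48141590 to 60462708 counts in 7 libraries, 149773219 in Ly6Clo KO replicate 2 and 173703361 in Ly6Clo WT replicate 2. Each member had at least 136 counts in every library, so counting error was small beside the spread within Ly6Chi WT and within Ly6Clo KO. In Ly6Clo WT some spreads were narrow, as for Idi1 at 11.3 ± 0.697 CPM (SD, n = 3), and counting error weighed more. Levels are given as CPM, a gene's counts relative to its library's total, with that total scaled by edgeR's TMM method. By 6 Ly6Chi markers the sorted populations matched their labels. The summed level was 6949 to 7759 CPM in Ly6Chi WT libraries and 124 to 207 CPM in all Ly6Clo libraries. The summed level of 7 Ly6Clo markers lay closer between them, at 1239 to 5934 CPM in Ly6Chi WT and 6583 to 19141 CPM in the Ly6Clo libraries. Cebpa stood at 44.8 ± 11.5 CPM in Ly6Chi WT, 18.3 ± 0.768 in Ly6Clo WT and 3.22 ± 0.709 in Ly6Clo KO (SD, n = 3 each). Ly6Chi WT replicate 3 carried the female transcript Xist at 30.0 CPM with the Y-linked Ddx3y at 0, while Ddx3y was 69.3 to 142 CPM in the other 8 libraries. The libraries labelled replicate 1 also stood apart, with a summed level of 10 immediate early and heat shock genes of 1588 to 2382 CPM against 10114 to 22233 CPM in the other 6.

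Per length, the control genes Srebf2 and Insig1 were the most abundant of the 8 and Lss the scarcest. The mean TPM (transcript counts scaled by length) over the 9 libraries was 88.7 for Srebf2, 43.2 for Insig1, 30.3 for Cyp51, 25.1 for Hmgcs1, 15.6 for Fdft1, 14.2 for Sqle, 8.94 for Idi1 and 3.43 for Lss. The deposited length of Lss is 10787 bases of merged exons, which lowers its TPM relative to a shorter transcript model. In Ly6Clo WT cells the neighbours in this order Fdft1 and Sqle stood at 17.1 ± 2.87 and 16.9 ± 1.36 TPM (SD, n = 3), a difference smaller than their spread.

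Srebf2 (chr15:82147181-82205379, GRCm38), the gene of the master regulator, measured 91.3, 187 and 236 CPM in Ly6Chi WT replicates 1 to 3. The same replicates measured 190, 223 and 272 CPM in Ly6Clo WT and 115, 268 and 240 CPM in Ly6Clo KO. Ly6Chi WT replicate 1 and Ly6Clo KO replicate 1 lay below all the others, and the 3 groups overlapped, with means of 171 ± 73.7, 229 ± 41.3 and 208 ± 81.6 CPM (SD, n = 3). Insig1 (chr5:28071363-28078662), which encodes the sterol-dependent brake that keeps SCAP and SREBP2 in the endoplasmic reticulum, was the most uneven of the 8 in Ly6Clo WT cells. Its levels were 21.7, 64.6 and 45.0 CPM in Ly6Chi WT, 28.5, 90.9 and 32.9 CPM in Ly6Clo WT, and 20.3, 46.5 and 38.5 CPM in Ly6Clo KO. The single highest value came from Ly6Clo WT replicate 2, the deepest library, 3.20 times the lowest of its group.

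Hmgcs1 (chr13:119690379-119708260), the synthase that condenses acetyl units into HMG-CoA, measured 18.7, 42.2 and 57.3 CPM in Ly6Chi WT, 35.7, 42.4 and 27.2 in Ly6Clo WT, and 30.6, 40.7 and 37.0 in Ly6Clo KO. Its group means lay within 39.4 ± 19.4, 35.1 ± 7.63 and 36.1 ± 5.08 CPM (SD, n = 3), closer together than the replicates of any group. Idi1 (chr13:8885501-8892451), the isomerase that readies the isoprenoid unit for chain building, measured 5.04, 14.4 and 13.4 CPM in Ly6Chi WT, 11.7, 10.5 and 11.6 in Ly6Clo WT, and 2.11, 9.48 and 11.9 in Ly6Clo KO. Ly6Clo WT cells held it within 1.12-fold from library to library, whereas its highest Ly6Clo KO library was 5.62 times its lowest.

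Fdft1 (chr14:63145150-63179578, minus strand), squalene synthase and the first step committed to sterols, measured 10.3, 29.2 and 21.9 CPM in Ly6Chi WT. Ly6Clo WT gave 23.5, 19.9 and 24.9 CPM, and Ly6Clo KO gave 5.10, 20.0 and 29.7 CPM, the last being its highest value in any library. Sqle (chr15:59315077-59331192), squalene epoxidase and a rate-limiting oxygen-dependent step, measured 10.5, 29.8 and 30.9 CPM in Ly6Chi WT, 28.4, 30.8 and 32.0 in Ly6Clo WT, and 7.43, 26.4 and 30.0 in Ly6Clo KO. For Sqle, 7 of the 9 libraries thus lay between 26.4 and 32.0 CPM, and only replicate 1 of Ly6Chi WT and of Ly6Clo KO fell outside. Both genes had nearly flat Ly6Clo WT libraries, with a highest-to-lowest ratio of 1.25 for Fdft1 and 1.13 for Sqle.

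Lss (chr10:76531588-76557138), the cyclase that makes lanosterol, measured 4.99, 10.8 and 6.55 CPM in Ly6Chi WT, 13.3, 15.8 and 10.2 in Ly6Clo WT, and 6.53, 14.2 and 22.9 in Ly6Clo KO. It was the one member whose means ran in the order Ly6Chi WT, Ly6Clo WT, Ly6Clo KO, at 7.44 ± 3.0, 13.1 ± 2.81 and 14.5 ± 8.21 CPM (SD, n = 3), and the groups overlapped. Cyp51 (chr5:4081145-4104746, minus strand), the demethylase that starts the trimming of lanosterol, measured 22.3, 48.5 and 68.0 CPM in Ly6Chi WT, 55.1, 65.4 and 35.0 in Ly6Clo WT, and 22.5, 34.8 and 35.4 in Ly6Clo KO. Its Ly6Clo KO mean of 30.9 ± 7.31 CPM was the lowest of the 3 groups, but the highest KO library, 35.4 CPM, exceeded the lowest Ly6Clo WT library, 35.0 CPM.

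**Figure D1:**
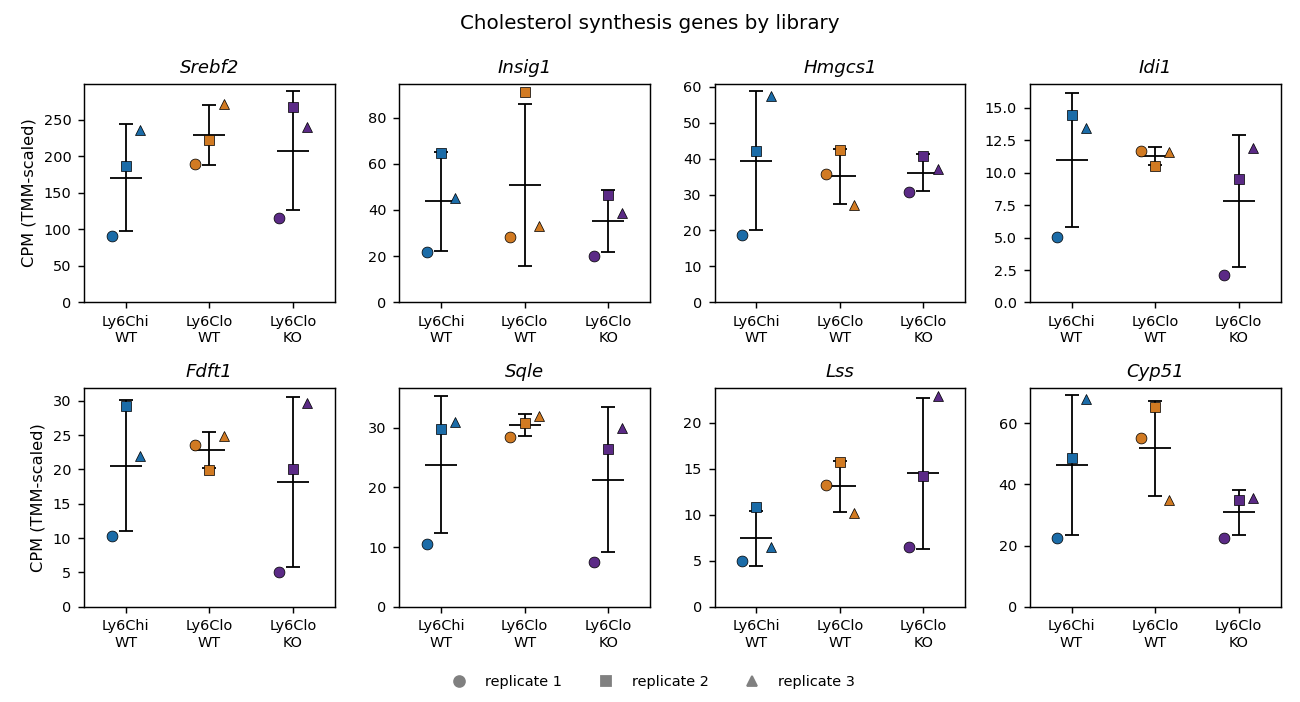
CPM (y axes, from 0, each gene on its own scale) of the 8 genes in the 3 groups (x axes), with 1 point per library shaped by replicate number and the mean ± SD as a bar. The replicate 1 circle is the lowest point of Ly6Chi WT and of Ly6Clo KO in all 8 panels, and no 2 groups separate in any panel.

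Of 5 members, part of the counted exons is shared with a gene on the opposite strand. Fdft1 shares 774 of its 4116 exon bases (18.8%) with Ctsb, a lysosomal protease gene whose table entry held 244 times as many counts as that of Fdft1. Cyp51 shares 166 of 4415 bases (3.76%) with Akap9, whose counts were 0.833 times those of Cyp51. Hmgcs1, Idi1 and Lss overlap only genes with less than 1% of their own counts. No source used here states whether the counting used strand, so the levels of Fdft1 and Cyp51 are uncertain to that extent. Ctsb itself averaged 2715 ± 389 CPM in Ly6Chi WT, 6326 ± 1082 in Ly6Clo WT and 4304 ± 411 in Ly6Clo KO (SD, n = 3). Fdft1 averaged 20.5 ± 9.54, 22.8 ± 2.57 and 18.2 ± 12.4 CPM in the same order, and both genes had their highest mean in Ly6Clo WT. The part of Ctsb reads in the Fdft1 level was not tested.

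Loss of the Cebpa enhancer was not accompanied by a detectable change of any of the 8 genes in Ly6Clo monocytes. In Ly6Clo KO against Ly6Clo WT cells, 0 of 8 members were called, meaning an adjusted p under 0.05 (edgeR, quasi-likelihood, Benjamini-Hochberg over 18341 genes); over all genes 0.0709% were called, 0.0109% higher and 0.06% lower. None of the 8 reached an unadjusted p under 0.05 with edgeR (6.16% of all genes), DESeq2 or limma-voom, and none was called by DESeq2 (1.51% of all genes) or limma-voom (0.0872%). The values of 6 members were negative and the median log2 fold change was -0.42, against 0.03 over all genes tested. Cyp51 had the most negative estimate, -0.75 (SE 0.40, 95% interval -1.66 to 0.16, edgeR adjusted p = 0.93). Insig1 and Idi1 both stood at -0.53, with intervals of -1.76 to 0.69 and -1.88 to 0.83, and Sqle at -0.51 (-1.71 to 0.68). Hmgcs1 was at 0.04 (-0.79 to 0.87) and Lss at 0.15 (-0.92 to 1.22). Srebf2 was at -0.14 (-1.02 to 0.74) and Fdft1 at -0.32 (-1.62 to 0.98), so that the data allow a fall of over 2-fold for 6 of the 8, all but Hmgcs1 and Lss. In bulk samples, fewer cells that express a gene and less RNA per cell cannot be told apart.

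No member passed the test between the 2 monocyte subsets of wild-type mice either. Between Ly6Clo WT and Ly6Chi WT, edgeR called 0 of 8 members (3.51% of all genes, 1.88% higher and 1.62% lower), and so did DESeq2 (10.7%) and limma-voom (4.38%). At an unadjusted p under 0.05 the count was 0 with edgeR (18.2% of all genes), DESeq2 and limma-voom. Positive values were seen for 7 members and the median was 0.19, against 0.00 over all genes. Lss had the most positive estimate, 0.81 (SE 0.48, interval -0.26 to 1.89, edgeR adjusted p = 0.42), and Srebf2 came next at 0.41 (-0.47 to 1.30). Hmgcs1 was the 1 negative value, -0.17 (-1.0 to 0.67), while Idi1 lay at 0.04 (-1.31 to 1.39) and Fdft1 at 0.15 (-1.14 to 1.45). Levels of all 8 overlapped between the groups, whereas 28.3% of all tested genes had no overlap.

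Ly6Clo KO against Ly6Chi WT cells, which shares libraries with both earlier contrasts, gave 0 of 8 called by edgeR (4.52% of all genes), DESeq2 (10.6%) or limma-voom (4.95%). At an unadjusted p under 0.05 there were 0 with edgeR (16.9% of all genes) and limma-voom and 1 with DESeq2. The DESeq2 share over all genes at that unadjusted p was not counted, so the 1 cannot be set against it. The values of 6 were negative and the median was -0.16, against 0.04 over all genes. Lss was again the most positive at 0.97 (SE 0.48, interval -0.11 to 2.05, edgeR adjusted p = 0.36) and Cyp51 the most negative at -0.58 (-1.49 to 0.33). All 8 overlapped between groups here and in Ly6Clo KO against Ly6Clo WT, where 22.9% and 10.9% of all tested genes did not.

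**Figure D2:**
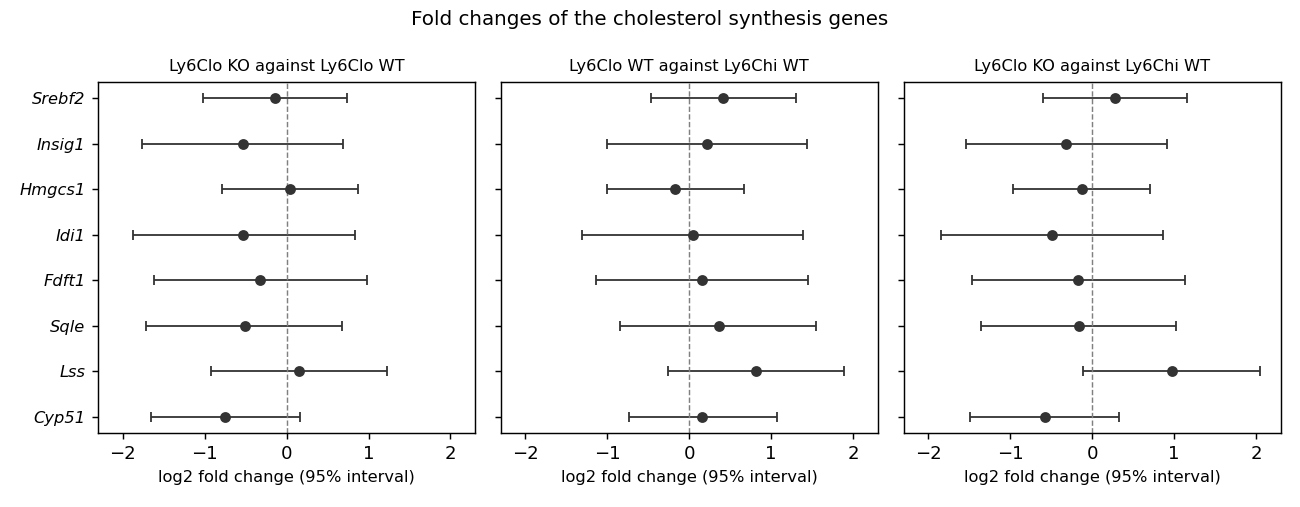
Log2 fold change (x axes) of the 8 genes (rows) in the 3 comparisons (panels), as points with 95% intervals from the edgeR fit. Every interval includes 0; the points run from -0.75 for Cyp51 in Ly6Clo KO against Ly6Clo WT to 0.97 for Lss in Ly6Clo KO against Ly6Chi WT.

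For each of the 8 genes the libraries of at least 1 group differed by more than the group means did. All 8 members had their lowest Ly6Chi WT level in replicate 1, and all 8 had their lowest Ly6Clo KO level in replicate 1. Over all tested genes, 38.1% were lowest in the first of these libraries, 39.6% in the second and 20.3% in both; of the 14 other enzymes of the route, 5 were lowest in both. Replicates 2 and 3 of Ly6Chi WT averaged 2.57 times replicate 1 as a median over the 8 genes, from 1.74 for Lss to 2.88 for Sqle, where the median of all genes was 0.992. In Ly6Clo KO cells the same ratio was 2.53 in the median, from 1.27 for Hmgcs1 to 5.06 for Idi1, and Fdft1 (4.86) and Sqle (3.80) were also among the widest. Ly6Clo WT showed no such gap: the median ratio was 0.976, from 0.912 for Cyp51 to 2.18 for Insig1, and 3, 2 and 3 of the genes were lowest in replicates 1, 2 and 3. On the log2(CPM + 1) scale, centred on each gene's mean, the 8 genes averaged -0.89, 0.36 and 0.31 in Ly6Chi WT, 0.16, 0.45 and 0.11 in Ly6Clo WT, and -1.02, 0.19 and 0.33 in Ly6Clo KO.

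**Figure D3:**
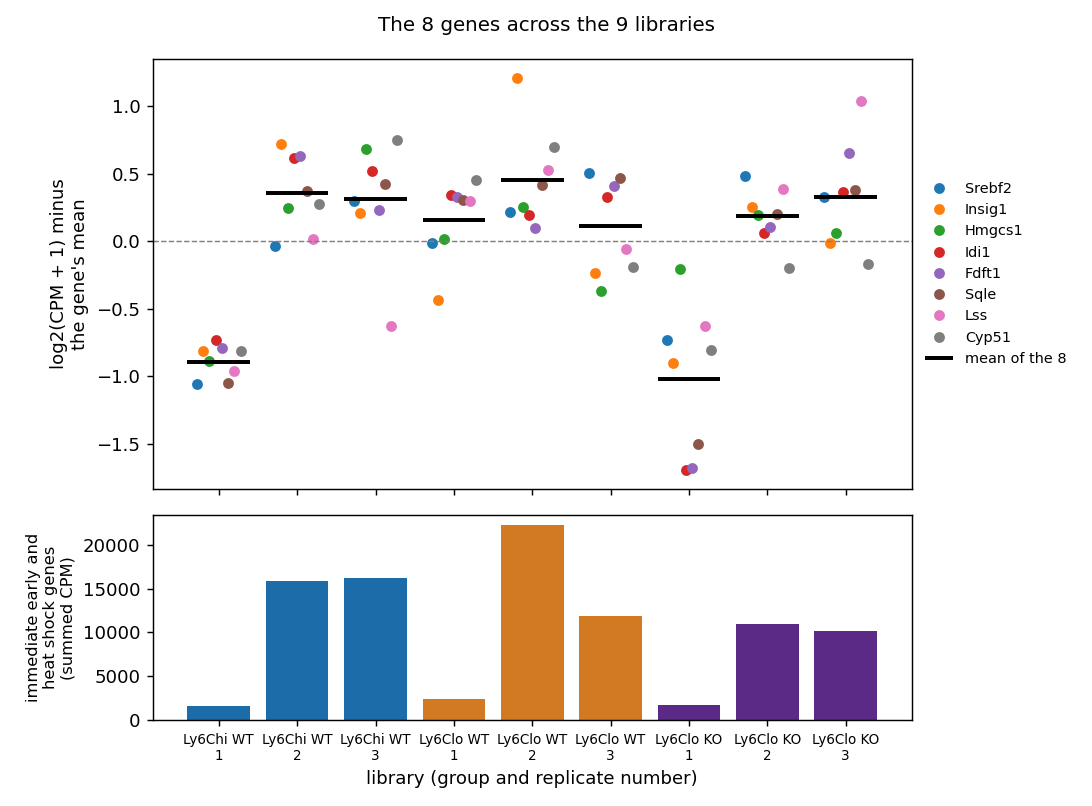
Upper panel: log2(CPM + 1) of each gene minus its mean over the 9 libraries (points) and the mean of the 8 (black bars); lower panel: summed CPM of 10 immediate early and heat shock genes, from 0. The 8 genes sit lowest in Ly6Chi WT replicate 1 (mean -0.89) and Ly6Clo KO replicate 1 (mean -1.02) but not in Ly6Clo WT replicate 1 (0.16), while the summed level is low in all 3 replicate 1 libraries.

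Other values moved with these libraries. The 10 immediate early and heat shock genes, which cells induce quickly when disturbed, summed to 1588, 15856 and 16188 CPM in Ly6Chi WT and 1697, 10911 and 10114 CPM in Ly6Clo KO. They were also low in Ly6Clo WT replicate 1, at 2382 CPM against 22233 and 11870, where the 8 genes averaged 0.16 above their means. The 7 Ly6Clo monocyte markers summed to 1239, 5529 and 5934 CPM in Ly6Chi WT, 9426, 19141 and 13167 in Ly6Clo WT, and 6583, 13054 and 11524 in Ly6Clo KO. One of the 7, Nr4a1, is itself an immediate early gene, at 322, 2624 and 2783, then 2455, 11124 and 5533, then 1637, 6257 and 5587 CPM. The other 6 summed to 917, 2905 and 3151 CPM in Ly6Chi WT, 6971, 8017 and 7634 in Ly6Clo WT, and 4946, 6797 and 5937 in Ly6Clo KO. Several lists of other cell types had their lowest sum of each group in the same 2 libraries. The 6 B cell genes gave 402, 610 and 496 CPM in Ly6Chi WT and 141, 480 and 550 in Ly6Clo KO, 5 T cell genes gave 75.8, 115 and 131 and then 25.9, 125 and 84.1, and 5 NK cell genes gave 11.3, 43.9 and 30.1 and then 8.23, 241 and 56.3. In Ly6Clo WT these lists ranged over 488 to 702, 45.7 to 142 and 40.1 to 181 CPM; Pax5, Prf1 and Eomes were each at 0 in 1 library. The 6 erythroid genes ran from 133 to 226 CPM in Ly6Chi WT and 404 to 3341 in Ly6Clo WT, and stood at 1.22, 7539 and 1417 CPM in Ly6Clo KO. The 6 neutrophil genes ranged over 66.0 to 469 CPM in Ly6Chi WT, lowest in replicate 1, and stayed at or under 8.96 CPM in the Ly6Clo libraries, and Camp, Ltf and Retnlg were each at 0 in 4 of the 9 libraries. Basophil and mast cell genes, 5 in number, ranged over 0.0536 to 2.37 CPM in Ly6Chi WT, 1.28 to 64.3 in Ly6Clo WT and 5.29 to 57.6 in Ly6Clo KO, lowest in replicate 1 each time, with Fcer1a at 0 in 6 libraries. Other lists did not have their lowest Ly6Clo KO sum in replicate 1. There, platelet and megakaryocyte genes gave 82.7, 70.7 and 50.2 CPM and plasmacytoid dendritic cell genes 125, 123 and 88. Conventional dendritic cell genes gave 47.3, 114 and 30 CPM and red pulp macrophage genes 621, 701 and 559. In Ly6Chi WT all of these but the red pulp macrophage genes (391, 369 and 455 CPM) were lowest in replicate 1. The 15 cell cycle genes were highest in replicate 1 of Ly6Chi WT (786, 585 and 494 CPM) and lowest in replicate 1 of Ly6Clo KO (263, 954 and 1202 CPM). The part of any of these in the low values of the 8 genes was not tested.

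Leaving out both low libraries, a choice made after the data were seen, did not bring any member past the threshold in any of the 3 comparisons (0 of 8 called by edgeR in each, against 0.153%, 3.30% and 3.49% of all genes). It did change the spread of directions. All 8 members were lowest of their group in these libraries, so leaving them out raised the Ly6Chi WT and Ly6Clo KO means. The direction of the shifts in the next 2 comparisons was thus set by the choice. In Ly6Clo KO against Ly6Clo WT, 4 values were then positive and 4 negative, from -0.58 for Cyp51 to 0.49 for Lss, and the median moved from -0.42 to 0.01. In Ly6Clo WT against Ly6Chi WT, 3 were positive and 5 negative and the median moved from 0.19 to -0.12. For Ly6Clo KO against Ly6Chi WT the split stayed at 2 and 6, with Lss at 1.10 and Cyp51 at -0.73.

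The library numbers in the deposited names were split here at their widest gap into 2 runs of numbers. No label used here names these runs as batches of preparation or sequencing. They divide the groups unevenly. Ly6Chi WT replicate 1 and replicates 1 and 2 of both Ly6Clo groups hold the lower numbers, called the first run. The other 4 libraries make up the second. Within the first run all 8 members were higher in Ly6Clo WT than in Ly6Chi WT, by 1.06 to 1.54 on the log2 scale; within the second, 3 were higher and 5 lower, from -0.87 to 0.37. In Ly6Clo KO against Ly6Clo WT all 8 were negative in the first run, from -1.07 to -0.11, and 6 were positive in the second, from -0.18 to 1.17. Ly6Clo KO against Ly6Chi WT gave 8 positive values in the first run, from 0.20 to 1.07, and 3 in the second, from -0.72 to 1.41. The sign thus differed between the 2 runs for 5, 6 and 5 of the 8 genes in these comparisons, in the order given here, and was the same for the rest. The only Ly6Chi WT library of the first run was replicate 1, the lowest of its group for all 8 genes. Each run has at most 2 libraries of a group, so that these are values with no test.

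Among themselves the members were not equally alike. By the root mean square difference of their centred log2(CPM + 1) values over the 9 libraries, Fdft1 and Idi1 were the closest of the 28 pairs, at 0.15, followed by Sqle with Idi1 (0.18) and Sqle with Fdft1 (0.21). These are the enzymes that lead from the isoprenoid unit through squalene to its epoxide. Lss and Cyp51, the next steps, were the least alike pair, at 0.66. Against the mean of all 8, Sqle (0.22) and Srebf2 (0.26) lay nearest and Lss (0.44) farthest. A flat profile would lie 0.52 from that mean. All these values share the same libraries and depths and are descriptions.

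Among 8087 other protein-coding genes with a mean of at least 10 CPM, the nearest to the mean of the 8 by the same measure over the 9 libraries was Rubcn (0.154). Rubcn, a regulator of autophagy and phagosome maturation, measured 27.9, 58.9 and 56.9 CPM in Ly6Chi WT, 50.7, 77.1 and 45.9 in Ly6Clo WT, and 26.2, 63.1 and 52.8 in Ly6Clo KO. It was also lowest in replicate 1 of Ly6Chi WT and of Ly6Clo KO. Smcr8 and Nudcd3 (0.184 each), Mtmr4 (0.192), Bag6 (0.204), Snrnp200 (0.208), Itfg2 (0.210) and Jmjd1c (0.211) were also among the nearest 10. Of enzymes of the route outside the 8, Nsdhl ranked 570 of 8087 (0.37), Pmvk 606 (0.38) and Dhcr7 854 (0.40), while Mvd ranked 6708 (0.80).

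The wider machinery was examined through 68 genes in 6 lists, the 8 members included, of which 66 had enough counts to test. Between Ly6Clo KO and Ly6Clo WT cells none was called (0 of 66 by edgeR, DESeq2 or limma-voom; 9, 9 and 8 at an unadjusted p under 0.05). With edgeR these 9 are 13.6% of the 66, against 6.16% of all genes at that unadjusted p. The share over all genes was not counted for DESeq2 or limma-voom. The median log2 fold change was -0.08, against 0.03 over all genes. The most abundant enzyme outside the 8 by TPM, the sterol isomerase Ebp, measured 47.2 ± 1.76 CPM in Ly6Clo WT and 44.5 ± 5.81 in Ly6Clo KO, and Mvd 25.7 ± 5.65 and 25.7 ± 2.21 (SD, n = 3). The ubiquitin ligase Rnf145, which acts on proteins of this route in the endoplasmic reticulum, stood at 183 ± 25.8 CPM in Ly6Clo WT and 201 ± 75.2 in Ly6Clo KO. Scarb1, the receptor that takes up cholesterol esters from high-density lipoprotein, was at 499 ± 51.1 and 395 ± 10.9 CPM. The sterol-sensing nuclear receptor Nr1h2 was at 255 ± 40.6 and 228 ± 21.8 CPM, and Soat1, which esterifies cholesterol for storage, at 184 ± 22.3 and 190 ± 48.9. None of these was called.

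Ly6Clo WT monocytes differed from Ly6Chi WT monocytes in 2 of the 66 genes, both lower in Ly6Clo (edgeR; 3.03% of the 66, near the 3.51% called over all genes, of which 1.62% lower). Npc2, the lysosomal protein that hands cholesterol on for export, measured 501, 595 and 536 CPM in Ly6Chi WT and 185, 145 and 147 in Ly6Clo WT. With an edgeR adjusted p of 0.0015 it was 3.43-fold lower (log2 fold change -1.78, SE 0.17) and stayed called in all 18 alternatives. Mvd, the decarboxylase that turns phosphorylated mevalonate into the isoprenoid unit, measured 52.4, 51.6 and 58.2 CPM in Ly6Chi WT and 31.7, 20.6 and 24.7 in Ly6Clo WT, without overlap. With an edgeR adjusted p of 0.024 it was 2.11-fold lower (log2 fold change -1.08, SE 0.20). Its call was lost in 6 of 18 alternatives: without any 1 Ly6Chi WT library (adjusted p 0.064, 0.078 and 0.087 for replicates 1 to 3), without Ly6Clo WT replicate 2 (0.090) or 3 (0.10), and without both low libraries (0.055). By list, 1 of 20 sterol enzymes, 0 of 11 SREBP control genes, 1 of 13 uptake and transport genes, 0 of 7 esterification and release genes, 0 of 6 genes of the non-sterol branches and 0 of 9 fatty acid synthesis genes were called; DESeq2 called 7 of the 66 (10.6%, with 10.7% over all genes) and limma-voom 2 (3.03%, with 4.38%). The count of 2 fell to 1 without Ly6Chi WT replicate 1 or 3, without Ly6Clo WT replicate 2 or 3, and without both low libraries. Scap, the escort of SREBP2, measured 21.1, 27.5 and 31.7 CPM in Ly6Chi WT and 45.2, 61.0 and 62.2 in Ly6Clo WT, just short of the threshold (log2 fold change 1.07, edgeR adjusted p = 0.051).

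Ly6Clo KO against Ly6Chi WT cells gave 8 called genes of 66, 4 higher and 4 lower (edgeR; 2.06% and 2.46% of all genes). The 8 are 12.1% of the 66, against 4.52% of all genes; DESeq2 called 12 (18.2%, against 10.6%) and limma-voom 7 (10.6%, against 4.95%). The lower ones were Npc2 (117 to 151 CPM in KO, log2 fold change -2.04, adjusted p = 0.00051) and Mvd (27.9, 25.7 and 23.5 CPM in KO, -1.07, adjusted p = 0.021). Stard3, a late endosomal sterol transporter, went from 223 ± 34.0 to 136 ± 13.8 CPM (-0.71, adjusted p = 0.041). Nceh1, which releases cholesterol from stored esters, went from 50.8 ± 6.25 to 19.3 ± 7.14 CPM (-1.39, adjusted p = 0.042). The higher ones were Scap, from 26.8 ± 5.33 to 60.2 ± 15.3 CPM (1.17, adjusted p = 0.032), and Mylip, from 19.5 ± 4.15 to 42.9 ± 7.20 CPM (1.14, adjusted p = 0.048), a ligase that marks lipoprotein receptors for degradation. Abcg1, a cholesterol exporter, rose from 33.3 ± 5.97 to 77.2 ± 24.7 CPM (1.21, adjusted p = 0.039), and Scd2, a fatty acid desaturase, from 37.7 ± 8.94 to 75.7 ± 8.05 CPM (1.01, adjusted p = 0.032; SD, n = 3 throughout). Npc2, Mvd, Scap and Mylip had a Ly6Clo WT mean close to that of Ly6Clo KO, with log2 fold changes between these 2 groups of -0.27, 0.00, 0.10 and 0.01. Nceh1, Stard3, Abcg1 and Scd2 had fold changes of -0.87, -0.46, 0.80 and 0.64 there, none of them called (adjusted p 0.63 to 0.68). The count of 8 depended on the full set of libraries: it was 2 without any 1 Ly6Chi WT library, without Ly6Clo KO replicate 2 or 3 or without Ly6Clo WT replicate 3, 3 without Ly6Clo WT replicate 1, 4 without Ly6Clo KO replicate 1, 5 without Ly6Clo WT replicate 2, and 2 without both low libraries. Npc2 was called in all 18 alternatives, Mvd lost its call in 6, Scap and Scd2 in 9 each, Nceh1 in 10, Stard3 in 11, Abcg1 in 12 and Mylip in 13.

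**Figure D4:**
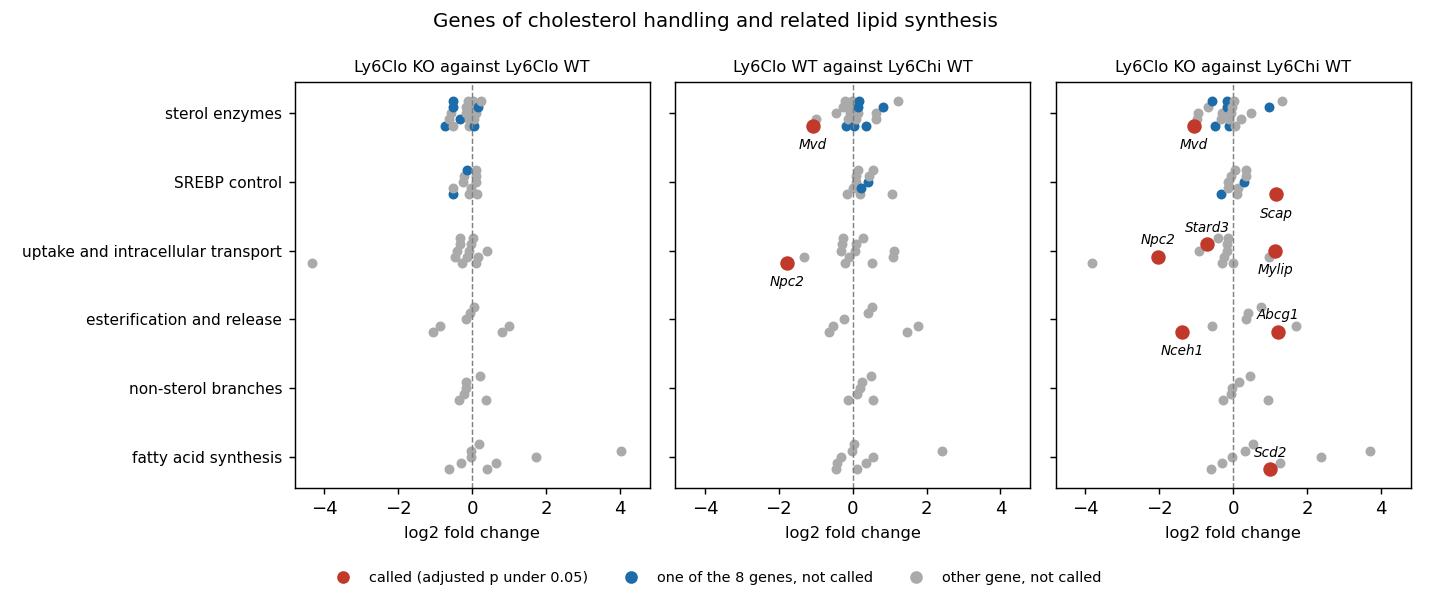
Log2 fold changes (x axes) of the 66 tested genes by list (rows; vertical offsets within a row only separate points) in the 3 comparisons. Red points with names are the called genes, 0 in Ly6Clo KO against Ly6Clo WT, 2 in Ly6Clo WT against Ly6Chi WT and 8 in Ly6Clo KO against Ly6Chi WT; the 8 genes (blue) stay uncalled in every panel.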

How the data were processed

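Each library's table of the authors gives a gene ID with its count, CPM, FPKM and TPM. The deposited counts are whole read counts per gene. The deposited CPM, FPKM and TPM could be recomputed from these counts and the gene lengths. Per the submitters' processing notes, the build was GRCm38 (mm10), and STAR 2.5.1a, featureCounts 1.4.6-p5 of Subread, Salmon 0.8.2, edgeR and limma are named without their roles. Gene symbols were found for 55141 of 55487 IDs (99.38%).

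From the counts, edgeR 4.0.16 (R 4.3.3) was run with TMM scaling, filterByExpr (minimum count 10; 18341 genes) and 1 term per group over all 9 libraries, with adjusted p under 0.05 as a call. The alternatives were RLE scaling, other filters, DESeq2 1.42.0, limma-voom (limma 3.58.1), a fit on the groups compared, a replicate block, a term for the library number run, and leaving out each library. The members and the pathway and marker lists were chosen with earlier results of these data known. Named pathway genes are up to 4 called per list and comparison by smallest adjusted p, or else the 2 of highest TPM, and the 10 genes most like the members; enzymes ranked in likeness beyond these were chosen after their values were seen. Some genes that these rules name are not reported here.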

Additional observations from a re-analysis of the deposited data

How the results depend on the processing

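None of the 24 fold changes of the 8 genes crossed the threshold in any of 18 alternatives (smallest adjusted p 0.12); of 432 values, 395 kept their sign and 37, in 15 results, did not. Without both low libraries, a setting added after the data were seen, Srebf2 (0.14) and Fdft1 (0.11) changed sign in Ly6Clo KO against Ly6Clo WT, and Fdft1 (-0.15), Idi1 (-0.29), Insig1 (-0.09) and Cyp51 (-0.15) in Ly6Clo WT against Ly6Chi WT. The direction of these changes was set by leaving out the libraries where the 8 genes were lowest. With limma-voom, Lss in Ly6Clo KO against Ly6Clo WT was -0.05. Hmgcs1 was then 0.03 in Ly6Clo WT and 0.05 in Ly6Clo KO, each against Ly6Chi WT. With the library number term, Hmgcs1 was 0.00 in Ly6Clo WT against Ly6Chi WT, and Hmgcs1 (0.02), Sqle (0.18) and Fdft1 (0.13) changed sign in Ly6Clo KO against Ly6Chi WT. Leaving out 1 library at a time gave sign changes within these ranges. In Ly6Clo KO against Ly6Clo WT they were -0.38 to 0.14 for Srebf2, -0.12 to 0.21 for Hmgcs1, -0.86 to 0.11 for Fdft1, -0.34 to 0.48 for Lss and -0.84 to 0.21 for Insig1. In Ly6Clo WT against Ly6Chi WT they were -0.49 to 0.22 for Hmgcs1, -0.16 to 0.51 for Fdft1, -0.30 to 0.30 for Idi1, -0.51 to 0.62 for Insig1 and -0.16 to 0.57 for Cyp51. In Ly6Clo KO against Ly6Chi WT they were -0.03 to 0.59 for Srebf2, -0.46 to 0.26 for Hmgcs1, -0.52 to 0.24 for Sqle, -0.70 to 0.27 for Fdft1 and -0.64 to 0.08 for Insig1. The cause was not tested.

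Pathway genes called between Ly6Clo WT and Ly6Chi WT numbered 7 with DESeq2, 4 with the 1 CPM filter, 5 without a filter, 1 without both low libraries and 1 to 3 with 1 library left out, against 2. Between Ly6Clo KO and Ly6Chi WT they numbered 2 in the fit on these groups alone, 4 with the library number term, 2 without both low libraries and 2 to 5 with 1 library left out, against 8. All genes called numbered 277, 1960 and 1951 with DESeq2 against 13, 643 and 829 in the order of the report; in Ly6Clo KO against Ly6Clo WT they were 54 without a filter, 27 with the 1 CPM filter, 0 in the fit on these groups alone, 29 without both low libraries and 2 to 21 with 1 library left out, and in the other comparisons 239 to 847 and 379 to 818. The replicate block gave 0 members called in each comparison, 0, 4 and 7 pathway genes and 13, 949 and 977 of all genes. Deviations of same-numbered libraries correlated at 0.18 to 0.26 for number 1, 0.05 to 0.17 for number 2 and 0.00 to 0.04 for number 3. Number 1 libraries correlated at -0.21 to -0.05 with those of other numbers, and numbers 2 and 3 with each other at 0.02 to 0.10. The number 1 libraries thus shared variation, but not every library correlated best with its own number, so the numbers were not taken as pairs in the main fit. Every member had at least 136 counts in each library, and 3 libraries a group limit the precision of every fold change.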

Other observations

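The branches beside the sterol route were measured as well. In the non-sterol branches, Coq2, which attaches the isoprenoid tail of ubiquinone, stood at 67.5 ± 4.32 CPM in Ly6Chi WT, 95.4 ± 11.9 in Ly6Clo WT and 74.7 ± 14.5 in Ly6Clo KO (SD, n = 3). Dhdds, a subunit of the enzyme that makes the dolichol chain for glycosylation, was at 52.7 ± 10.5, 48.6 ± 4.72 and 43.5 ± 2.42 CPM in the same order. Acly, which supplies cytosolic acetyl-CoA to both sterol and fatty acid synthesis, was at 440 ± 90, 438 ± 64.3 and 356 ± 80.8 CPM. Its lowest library was replicate 1 in all 3 groups, at 340, 401 and 273 CPM. In Ly6Clo WT, however, replicate 3 was level with replicate 1, at 402 CPM. None of these 3 genes was called by edgeR in any comparison.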
